A study of Mus musculus with 62 samples.

Results

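Wheel running was compared with no running in the quadriceps of mice that all received pterostilbene (PT) and no nicotinamide riboside (NR). The comparison holds 16 of the 62 poly-A RNA libraries of the study, namely 8 runners and 8 non-runners, chosen by the group names in the sample titles. All animals were male, and each library came from 1 mouse. PT is a plant stilbenoid, a methylated relative of resveratrol, and NR is a vitamin B3 form that cells turn into NAD. The full study crossed running, NR and PT in 8 groups. The other running comparisons used beside this one held 7 runners and 8 non-runners under NR alone, 8 and 8 under NR and PT, and 7 and 8 without a supplement. Running was voluntary, per the series' design text. Strain, age, distance run, and the dose, route and duration of PT, are not stated in the sources used here. Each group under PT alone had 1 mouse on each of 8 termination days, in 2 cohorts of 4 days. On every day the runner and the non-runner were taken at opposite times: runners at noon on days 1, 3, 6 and 8 and in the morning on days 2, 4, 5 and 7. Each of the 16 libraries therefore comes from its own session of day and time. The labels also give a purification pool. It was 1 for all cohort 1 libraries and for the day 6 runner, and 3 for the other cohort 2 libraries.

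Limb muscle adapts to regular running with more mitochondria, a denser capillary bed and a shift of fast fibres towards more oxidative myosin types. The coactivator PGC-1alpha drives much of the mitochondrial part, and VEGF and apelin signals act on the vessels. Tendon and cartilage cells at the muscle's ends and sheaths make a matrix of their own, rich in small proteoglycans and lubricin. Stilbenoids are known for acting on sirtuins and on the antioxidant response.

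Library totals were 9.95 to 28.0 M counts in runners and 9.23 to 30.8 M in non-runners (two-sided exact permutation test, p = 0.74, n = 8 each). Body weight change, whose unit the labels do not state, averaged 0.225 ± 2.39 in runners and 3.28 ± 1.23 in non-runners (SD, two-sided exact permutation test, p = 0.00917, 0.0275 adjusted over 3 comparisons, n = 8 each). The RNA integrity number was 8.7 to 10 in runners and 9.1 to 10 in non-runners (exact permutation test, p = 0.407). Muscle markers were high in all 16 libraries: the summed level of 14 fast-fibre genes was 156100 to 204400 CPM (counts scaled to library size) in runners and 174400 to 207400 CPM in non-runners. The slow myosin Myh7 had 0.196 to 3.48 CPM in runners, against 0.249 to 5.90 CPM in non-runners.

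One gene passed the test in this comparison. C1qtnf4, which encodes a secreted protein of the C1q and tumour necrosis factor related family, fell to 2.52 ± 0.865 CPM in runners, against 4.85 ± 1.22 CPM in non-runners (SD, n = 8 each). Its log2 change was -0.98 ± 0.17 (SE; edgeR quasi-likelihood test, Benjamini-Hochberg adjusted p = 0.00853). It was the 1 call among 14549 genes tested, or 0.00687%, and the next smallest adjusted p was 0.121.

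On days 1 to 8, C1qtnf4 had 1.69, 4.22, 3.18, 2.60, 2.41, 1.74, 2.59 and 1.75 CPM in runners. On the same days it had 5.32, 4.87, 5.58, 6.91, 4.14, 4.20, 5.03 and 2.76 CPM in non-runners. The runner was lower than the non-runner on all 8 days, and 6 of 8 runners lay below every non-runner. Mice of the same day are not pairs and were taken at opposite times, so counts of days here and below are descriptions only. The groups overlapped through the runners of days 2 and 3, which were above the lowest non-runner, that of day 8. The gene lies on chromosome 2 from 90885860 to 90890525 (mm10, plus strand) and is expressed at a low level: it took 24 to 64 counts per library in runners and 36 to 179 in non-runners. The call was lost without the day 1 runner (adjusted p = 0.0511) or without the day 6 runner (adjusted p = 0.0729). The day 6 runner is the only cohort 2 library here in purification pool 1, and the fit had no term for pool. In fits of the 16 libraries without the other groups, the call was lost with day and time as terms (log2 change -0.98, adjusted p = 0.064). It was also lost with running alone (-0.99, adjusted p = 0.0744). With the replicate number of the titles as a block it was kept (-0.97, adjusted p = 0.0157 in edgeR), but these numbers do not pair the mice. Within cohort 1 the log2 change was -0.99 (adjusted p = 0.298) and within cohort 2 -0.94 (adjusted p = 0.691).

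In the other supplement arms C1qtnf4 averaged 2.94 ± 0.470 CPM in 7 runners, against 3.36 ± 0.591 CPM in 8 non-runners under NR alone. Under NR and PT it averaged 3.20 ± 0.702 CPM in 8 runners, against 4.29 ± 1.07 CPM in 8 non-runners, and without a supplement 2.83 ± 0.627 CPM in 7 runners, against 3.40 ± 1.06 CPM in 8 non-runners (SD). Of the 8 groups, runners under PT alone had the lowest mean and non-runners under PT alone the highest. The running response under PT alone was lower than that under NR alone by a log2 difference of -0.77 ± 0.25 (SE), than that under NR and PT by -0.56 ± 0.24, and than that without a supplement by -0.70 ± 0.25. These differences had unadjusted p of 0.00357, 0.026 and 0.00755 in edgeR. None passed the adjustment over all genes, so a response particular to PT is not shown. The gene was picked by its small p under PT alone, and that comparison enters each difference. The unadjusted p are therefore no independent support.

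The other genes with the smallest p did not pass the test and are given by their values. On the lower side, Wnt4, a secreted Wnt ligand, had 27.3 to 41.3 CPM in runners, with a median of 33.7, and 36.4 to 49.9 CPM in non-runners, with a median of 45.5 (log2 change -0.43 ± 0.10, SE). Fzd9, which encodes a Frizzled receptor for Wnt proteins, had 15.3 to 20.9 CPM in runners (median 17.2), against 19.3 to 24.4 CPM in non-runners (median 21.9), a log2 change of -0.33 ± 0.08. Both were lower in the runner on all 8 days, and 5 runners for Wnt4 and 7 for Fzd9 lay below every non-runner. Zfp346, which encodes a protein that binds double-stranded RNA, averaged 18.8 ± 1.31 CPM in runners, against 22.3 ± 1.53 CPM in non-runners (SD, log2 change -0.24 ± 0.05). Tmbim1, which encodes a membrane protein of the BAX inhibitor motif family, had 50.5 to 60.2 CPM in runners, against 61.2 to 70.3 CPM in non-runners, with no overlap (log2 change -0.19 ± 0.05). The adjusted p of these 4 genes was 0.121 each in edgeR.

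On the higher side, Kcng4, which encodes a silent subunit that modifies voltage-gated potassium channels, had 51.4 to 111.7 CPM in runners (median 77.2), against 43.7 to 61.2 CPM in non-runners (median 56.0). Its log2 change was 0.54 ± 0.12 (SE), and 6 of 8 runners were above every non-runner. Iqsec2, which encodes an exchange factor for ARF proteins, averaged 15.9 ± 1.48 CPM in runners, against 11.8 ± 1.79 CPM in non-runners (SD, log2 change 0.43 ± 0.10). Clybl, a mitochondrial citramalyl-CoA lyase gene, averaged 45.5 ± 4.08 CPM in runners, against 37.5 ± 3.28 CPM in non-runners (log2 change 0.28 ± 0.07). The runner was higher on all 8 days for both. Prg4, which encodes lubricin, the lubricant of joint and tendon surfaces, averaged 16.6 ± 8.93 CPM in runners, against 7.96 ± 2.14 CPM in non-runners (log2 change 1.01 ± 0.23). These 4 had an adjusted p of 0.121 each in edgeR. C1qtnf3, a secreted relative of C1qtnf4 known from cartilage, had 0.446 to 3.81 CPM in runners, against 0.325 to 0.768 CPM in non-runners (log2 change 1.39 ± 0.34, adjusted p = 0.140), on 9 to 54 and 6 to 22 counts per library. Prg4 overlaps Tpr, and Tmbim1 overlaps Pnkd, on opposite strands, and how counting treated strand is not stated, so their levels are uncertain.

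**Figure D1:**
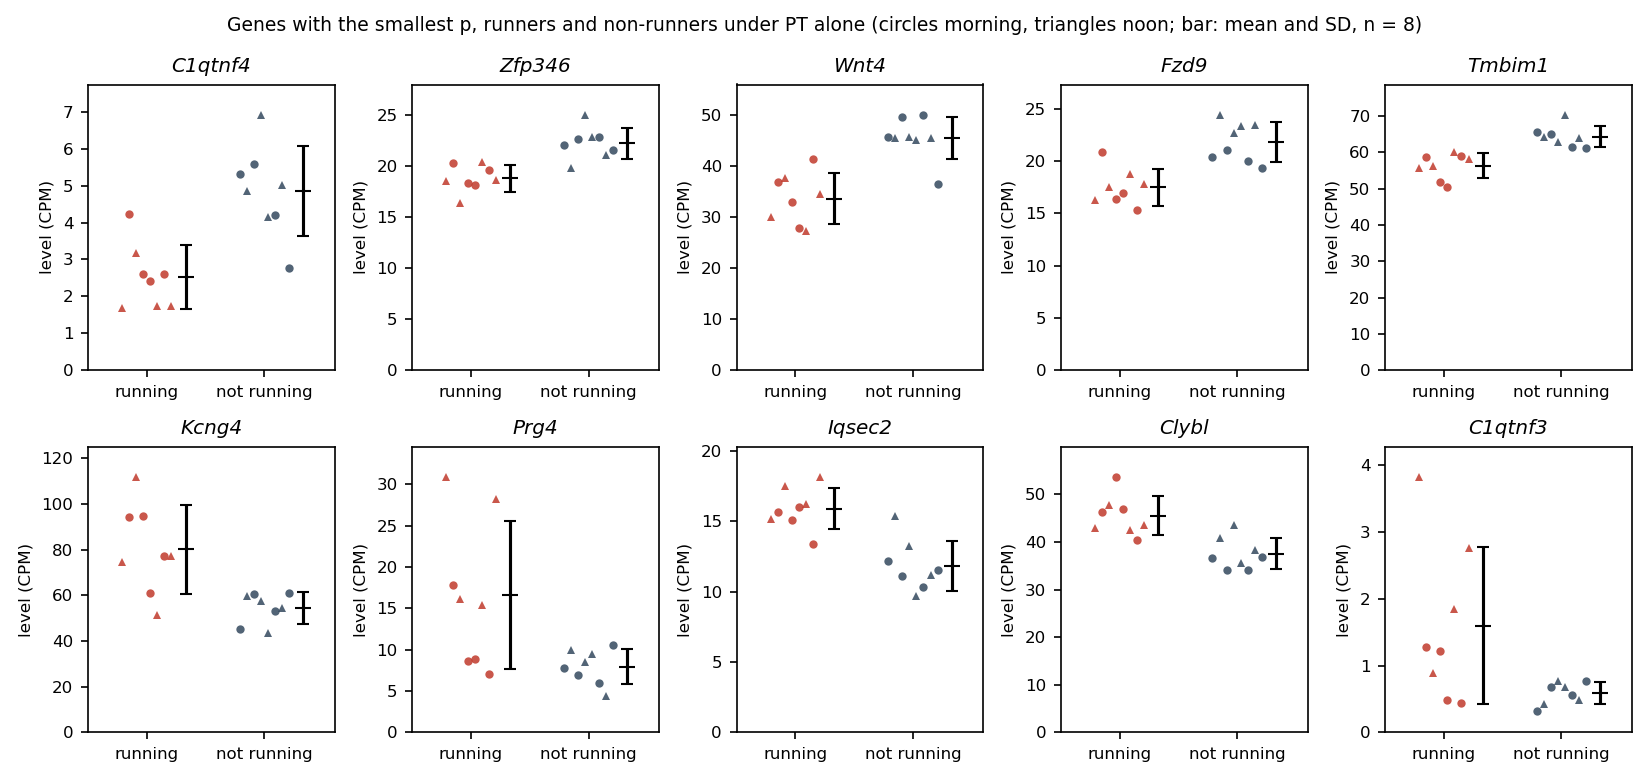
Levels in CPM of the 5 lower and the 5 higher genes with the smallest p, in 8 runners (red, left in each panel) and 8 non-runners (dark, right) under PT alone; circles were taken in the morning and triangles at noon, and bars give the mean and SD. C1qtnf4 averages 2.52 CPM in runners, against 4.85 CPM in non-runners, and Tmbim1 is the only panel without overlap between the groups.

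The start regions of 2 genes that were higher in most runners are shown beside their values: Kcng4, the higher gene with the smallest p, and Chad, a cartilage matrix gene with a log2 change of 1.65 ± 0.41 (SE, adjusted p = 0.140 in edgeR). Each is the 250 bases before the gene's start from RefSeq (GRCm38.p6), 5′ to 3′ on the gene's strand, with the E-box CANNTG in capitals. The 6 letters are the general binding motif of basic helix-loop-helix factors such as MyoD and scleraxis, and the motif reads the same on both strands.
Kcng4, minus strand, chr8:119635681-119635930: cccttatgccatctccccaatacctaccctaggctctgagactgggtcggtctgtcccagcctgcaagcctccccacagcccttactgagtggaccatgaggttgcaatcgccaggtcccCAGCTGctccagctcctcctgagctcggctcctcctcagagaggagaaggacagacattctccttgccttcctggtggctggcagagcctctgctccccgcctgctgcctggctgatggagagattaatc
Chad, plus strand, chr11:94564797-94565046: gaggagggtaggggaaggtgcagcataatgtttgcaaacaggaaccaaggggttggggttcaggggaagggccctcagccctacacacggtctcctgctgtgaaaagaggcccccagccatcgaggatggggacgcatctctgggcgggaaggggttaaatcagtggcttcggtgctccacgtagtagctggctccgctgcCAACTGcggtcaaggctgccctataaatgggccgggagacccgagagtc
Each region holds 1 E-box, CAGCTG for Kcng4 and CAACTG for Chad, and 66.2% of the 32851 promoter windows of this length in the RefSeq table hold at least 1, so the match is common. Of the 10 genes above, 8 are in that table.

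Across all genes the changes were small. The median log2 change was 0.01 with a median SE of 0.10, and 7800 genes (53.6%) had a change above 0. At an unadjusted p below 0.05 there were 1342 genes (9.22%), of which 764 (5.25%) were higher and 578 (3.97%) lower in runners. The 8 runners and 8 non-runners did not overlap in CPM for 10 genes (0.0687%). The 7 below (0.0481%) were Tmbim1, Nosip, Stat5b, Eif6, Morf4l2, Spcs2 and Dok7, and the 3 above (0.0206%) were Sparcl1, Samd9l and Slc38a10, all but Tmbim1 named after their values were seen. Stat5b, a transcription factor downstream of growth hormone, had 267.8 to 301.2 CPM in runners, against 308.0 to 359.0 CPM in non-runners (log2 change -0.23 ± 0.06, adjusted p = 0.141 in edgeR). Dok7, an adaptor needed at the neuromuscular junction, had 12.43 to 15.32 CPM in runners, against 15.33 to 18.19 CPM in non-runners (log2 change -0.24 ± 0.09). DESeq2 with the same design called 16 genes, 4 higher and 12 lower, among them Kcng4, Prg4, Iqsec2, Clybl, Wnt4, Fzd9, Zfp346, Tmbim1 and Stat5b. It gave C1qtnf4 a log2 change of -0.99 ± 0.17 (SE) and an unadjusted p of 1.19e-08 in its fit across all genes, but no adjusted value, since its filter on mean counts dropped the gene.

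**Figure D2:**
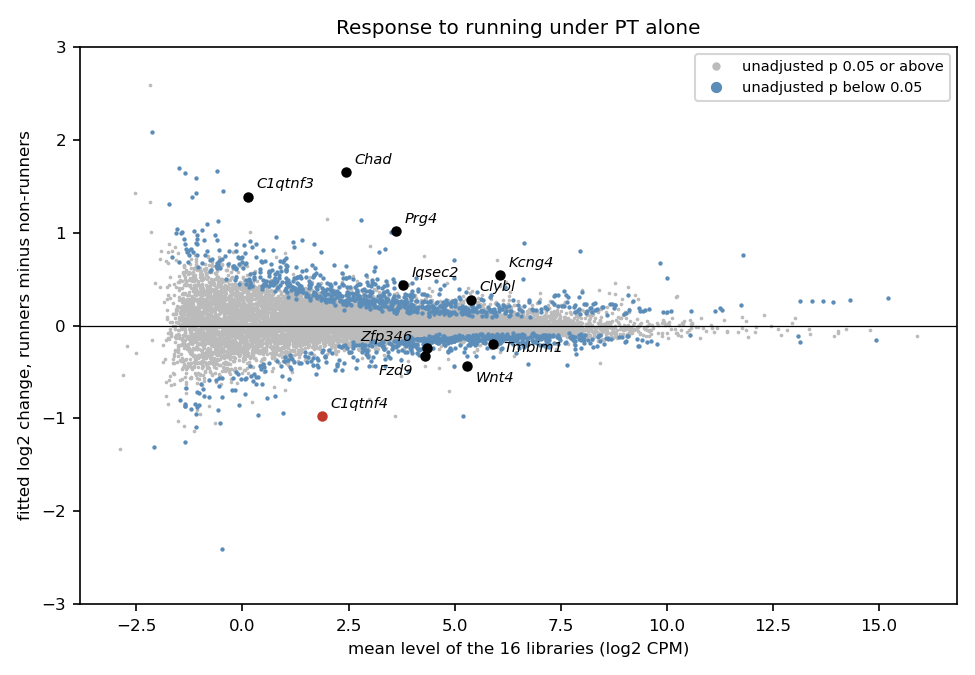
Fitted log2 change, runners minus non-runners under PT alone, against the mean level of the 16 libraries in log2 CPM for 14549 genes, with genes below an unadjusted p of 0.05 in blue; 1 gene lies beyond the axis limit of 3. C1qtnf4 (red) is the 1 gene that passed the test, and named genes in black did not.

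Genes of mitochondrial energy metabolism lay mostly above 0, by small amounts, and none passed the test. Of 37 complex I subunits, 36 were above 0 with a median log2 change of 0.11, and of 40 subunits of complexes II to V and cytochrome c, 38 were above 0 with a median of 0.15. At an unadjusted p below 0.05, 6 and 14 of them were higher and 0 lower. Over all 14549 genes tested, 5.25% were higher and 3.97% lower at this threshold, and 53.6% lay above 0. The counts of every list stand beside these shares. Cycs, cytochrome c, averaged 179.4 ± 21.4 CPM in runners, against 144.0 ± 18.8 CPM in non-runners (SD, log2 change 0.32 ± 0.10, SE). Cox7a1, the muscle isoform of a cytochrome oxidase subunit, averaged 185.1 ± 22.1 CPM in runners, against 147.1 ± 17.3 CPM in non-runners (log2 change 0.33 ± 0.12), with 7 of 8 runners above every non-runner. Of 22 genes of pyruvate oxidation and the TCA cycle, 21 were above 0 (median 0.15) and 14 were higher at the unadjusted threshold. Pdha1, a subunit of pyruvate dehydrogenase, had 581.7 to 703.7 CPM in runners (median 658.8), against 448.0 to 596.7 CPM in non-runners (median 557.1), a log2 change of 0.26 ± 0.08 (adjusted p = 0.233 in edgeR). Dlat, its acetyltransferase partner, averaged 216.4 ± 21.1 CPM in runners, against 181.6 ± 20.6 CPM in non-runners. Of 32 genes of fatty acid oxidation, 27 were above 0 (median 0.15) and 4 were higher at the unadjusted threshold.

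Of the 13 protein genes of the mitochondrial genome, 8 were tested, and 7 of these were higher at the unadjusted threshold, with log2 changes of 0.23 to 0.30. mt-Co1, a core subunit of cytochrome oxidase, had 35470 to 47340 CPM in runners (median 42320), against 28220 to 38110 CPM in non-runners (median 34340), a log2 change of 0.30 ± 0.10 (SE, adjusted p = 0.300 in edgeR). The share of all counts on mitochondrial genes was 10.2 to 14.4% in runners and 9.04 to 11.6% in non-runners. The other 5 genes had at most 8 counts in any of the 16 libraries although every fibre uses them, and mt-Nd3, the other tested gene, had at most 27, so these listed counts are not taken as levels. The median of 0.27 plotted for the mitochondrial genome includes mt-Nd3. Day by day, the median difference between the runner and the non-runner was above 0 on 7 of 8 days for complex I and for complexes II to V. The exception was day 7 in both cases, at -0.15 and -0.15 on the log2 scale. Leaving out the day 7 runner raised the number of called genes to 16, 7 higher and 9 lower, among them C1qtnf4, Wnt4, Kcng4, Prg4, Chad, Cd38 and Nqo1.

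Regulators placed above these genes gave values in both directions. Ppargc1a, which encodes PGC-1alpha, had 30.2 to 42.5 CPM in runners (median 37.6), against 27.2 to 40.6 CPM in non-runners (median 32.5), a log2 change of 0.19 ± 0.09 (SE, adjusted p = 0.529 in edgeR). Nrf1, a transcription factor for nuclear genes of mitochondria, averaged 11.2 ± 0.936 CPM in runners, against 13.3 ± 0.806 CPM in non-runners (SD, log2 change -0.23 ± 0.08). Of 27 tested exercise regulators 4 were higher and 4 lower at the unadjusted threshold, beside 5.25% and 3.97% of all genes. Their median was 0.01, and their log2 changes ran from -0.94 to 0.71. Pdk4, the kinase that inhibits pyruvate dehydrogenase, had 95.2 to 1609 CPM in runners, against 147.8 to 560.7 CPM in non-runners (log2 change 0.34 ± 0.42), with 1 runner below and 3 above every non-runner. Vegfa averaged 175.1 ± 38.0 CPM in runners, against 168.3 ± 25.1 CPM in non-runners, and the hexokinase gene Hk2 averaged 351.9 ± 59.1 CPM in runners, against 339.8 ± 40.7 CPM in non-runners. Slc2a4, the insulin-responsive glucose transporter, averaged 474.7 ± 19.3 CPM in runners, against 510.3 ± 19.8 CPM in non-runners (log2 change -0.10 ± 0.05). Tfrc, the transferrin receptor for iron uptake, averaged 290.4 ± 94.2 CPM in runners, against 224.8 ± 38.9 CPM in non-runners (log2 change 0.36 ± 0.16, adjusted p = 0.471).

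Fibre-type genes varied widely between animals. Myh1, the fast myosin IIx, had 2448 to 7945 CPM in runners (median 4240), against 1246 to 4071 CPM in non-runners (median 2586), and 5 of 8 runners were above every non-runner (log2 change 0.76 ± 0.27, SE, adjusted p = 0.371 in edgeR). Myh4, the fast myosin IIb, averaged 58710 ± 8426 CPM in runners, against 63660 ± 7952 CPM in non-runners, and Myh2, myosin IIa, 621.1 ± 532.2 CPM in runners, against 468.1 ± 306.0 CPM in non-runners (SD). The oxygen store Mb averaged 1128 ± 401.6 CPM in runners, against 716.6 ± 283.3 CPM in non-runners (log2 change 0.67 ± 0.29). The median log2 change was 0.07 for 14 slow-fibre genes and -0.07 for 14 fast-fibre genes. Day by day the slow-fibre median ran between -2.38 and 1.49, so it gave no common direction.

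Genes of calcium handling and of denervation and regeneration lay mostly below 0. Of 17 calcium genes 15 were below 0 (median -0.11), and 3 were lower at the unadjusted threshold, beside 3.97% of all genes. Cacng1, a subunit of the muscle calcium channel, had 175.1 to 243.9 CPM in runners (median 207.4), against 228.7 to 288.2 CPM in non-runners (median 258.5), a log2 change of -0.31 ± 0.08 (SE, adjusted p = 0.168 in edgeR). Sln, which encodes the calcium pump inhibitor sarcolipin, averaged 1.29 ± 0.826 CPM in runners, against 2.06 ± 0.957 CPM in non-runners (SD, log2 change -0.67 ± 0.48). Of 19 tested denervation and regeneration genes 16 were below 0, with a median of -0.23, and 5 were lower and 1 higher at the unadjusted threshold. Myod1, a myogenic transcription factor, had 6.36 to 10.6 CPM in runners (median 8.98), against 9.80 to 14.1 CPM in non-runners (median 11.6), a log2 change of -0.44 ± 0.12 (adjusted p = 0.207). The acetylcholine receptor subunits Chrna1, Chrnb1, Chrnd and Chrne had log2 changes of -0.37, -0.24, -0.39 and -0.30, with Chrnd and Chrne named after their values were seen. For Chrna1 the day 7 non-runner had 24.36 CPM, with the next at 16.25 CPM, and the change ran from -0.59 to -0.12 under the alternatives run. Of the 3 members above 0, the one past the unadjusted threshold was the cardiac actin Actc1, at 320.3 ± 187.1 CPM in runners, against 178.0 ± 34.2 CPM in non-runners (log2 change 0.80 ± 0.24). Its mean in runners leans on those of days 3 and 4, at 618.7 and 620.8 CPM. The next runner had 267.0 CPM, and the highest non-runner 236.2 CPM. The list's median difference was above 0 on 0 of 8 days. Of 12 Schwann cell markers 7 were below 0 and 5 above, beside 6748 of all 14549 genes below 0. At the unadjusted threshold 4 of the markers were lower, beside 3.97% of all genes. The summed level of these markers was 83.3 to 115.3 CPM in runners, against 95.9 to 125.8 CPM in non-runners. Their part in the receptor values was not tested. Atrophy genes had a median of -0.05, with 15 of 19 below 0, and Trim63, a muscle ubiquitin ligase, averaged 213.9 ± 22.4 CPM in runners, against 246.8 ± 21.01 CPM in non-runners (log2 change -0.21 ± 0.07).

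Endothelial and vessel growth genes lay mostly above 0, while pericyte and smooth muscle markers did not. All 20 endothelial markers had a change above 0 (median log2 change 0.17) and 7 were higher at the unadjusted threshold. Cdh5, VE-cadherin of the endothelial junction, had 64.8 to 110.8 CPM in runners (median 92.6), against 62.8 to 83.5 CPM in non-runners (median 76.9), a log2 change of 0.27 ± 0.09 (SE, adjusted p = 0.284 in edgeR). In bulk muscle, more cells of a type and more RNA per cell cannot be told apart. Of 20 ligands and receptors of vessel growth, 18 were above 0 (median 0.16) and 8 were higher at the unadjusted threshold. The lists overlap: Aplnr, Tie1, Tek, Kdr and Flt1 are in both, and Aplnr and Tie1 count among the higher genes of each. Among the ligands, Angpt1, angiopoietin 1, had 14.8 to 23.7 CPM in runners (median 17.9), against 11.1 to 16.4 CPM in non-runners (median 13.3), and the runner was higher on all 8 days (log2 change 0.45 ± 0.13, adjusted p = 0.208). The peptide ligand gene Apln averaged 3.40 ± 1.05 CPM in runners, against 2.27 ± 0.375 CPM in non-runners (SD, log2 change 0.60 ± 0.21). Its receptor gene Aplnr averaged 13.6 ± 3.63 CPM in runners, against 9.79 ± 1.66 CPM in non-runners (log2 change 0.50 ± 0.19). Pericyte and smooth muscle markers had a median of -0.01, and Acta2, smooth muscle actin, averaged 27.28 ± 6.498 CPM in runners, against 36.4 ± 6.85 CPM in non-runners (log2 change -0.44 ± 0.14).

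**Figure D3:**
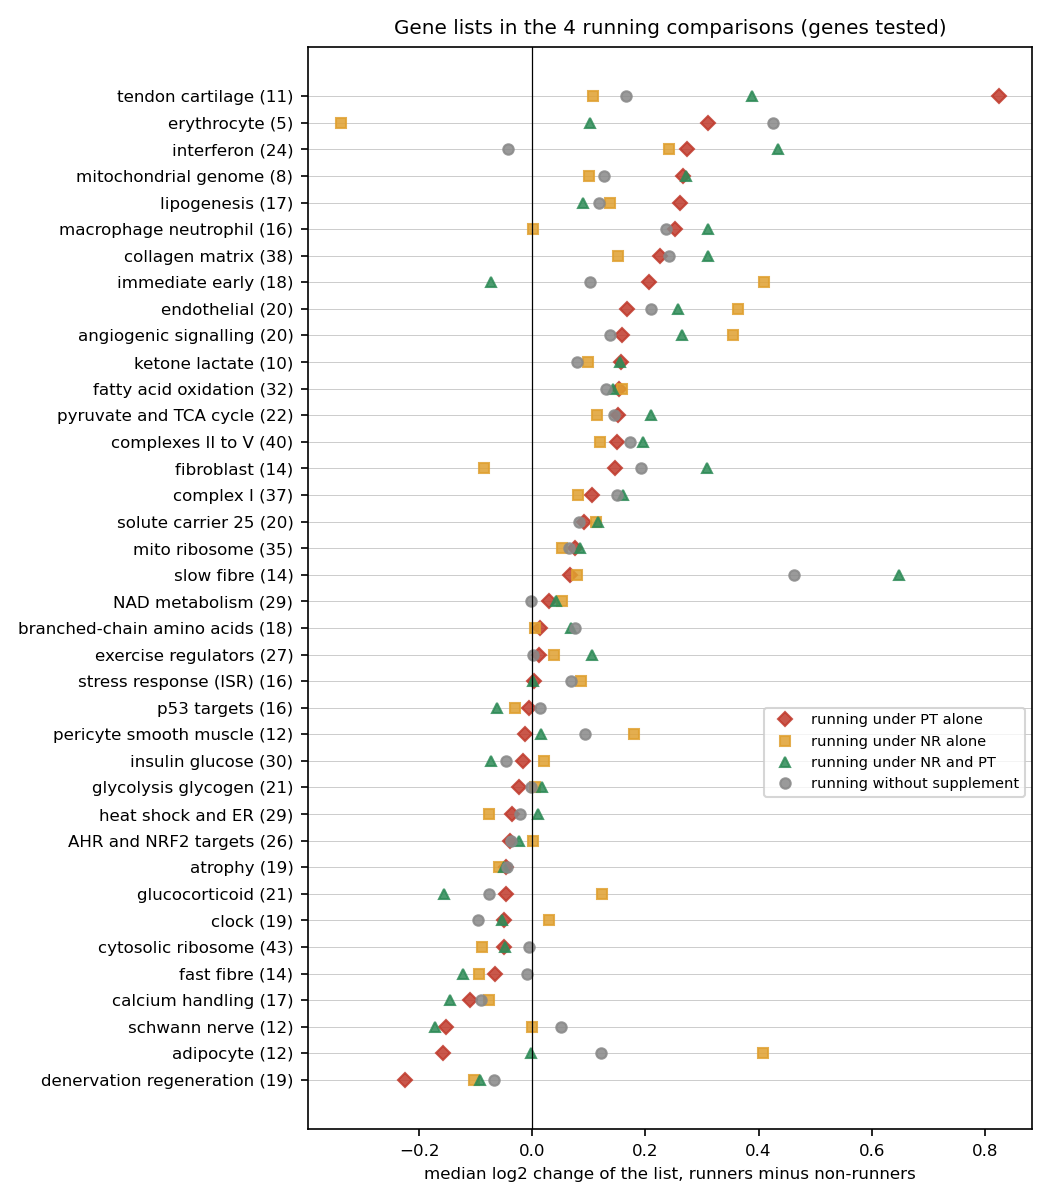
Median log2 change, runners minus non-runners, of 38 gene lists with more than 1 tested gene (number tested in brackets), under PT alone (red diamonds), NR alone (yellow squares), NR and PT (green triangles) and without a supplement (grey circles). Under PT alone tendon and cartilage markers have the highest median, 0.83, and denervation and regeneration genes the lowest, -0.23. The lists were chosen with earlier results of these data known.

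Tendon and cartilage markers had the highest median of the lists under PT alone. Lists and members were chosen with earlier results of these data known, so this rank only describes them and is no independent finding. Of 11 tested genes 10 were above 0, the median log2 change was 0.83, and 8 were higher at the unadjusted threshold. Chad, chondroadherin, averaged 8.17 ± 5.54 CPM in runners, against 2.74 ± 1.89 CPM in non-runners (SD). Comp, cartilage oligomeric matrix protein, averaged 9.55 ± 6.04 CPM in runners, against 4.41 ± 2.18 CPM in non-runners (log2 change 1.13 ± 0.32, SE). Fmod, the collagen-binding proteoglycan fibromodulin, averaged 129.1 ± 61.7 CPM in runners, against 68.5 ± 24.5 CPM in non-runners (log2 change 0.89 ± 0.25, adjusted p = 0.225 in edgeR). Scx, the tendon transcription factor scleraxis, named after its values were seen, was the member below 0, at 1.71 ± 0.618 CPM in runners, against 2.14 ± 0.677 CPM in non-runners (log2 change -0.38). Chad overlaps Acsf2 on the opposite strand, with the uncertainty given above.

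The time of day moved with these markers among runners. Their summed level was 356.2 to 627.1 CPM in the 4 runners taken at noon and 158.4 to 332.6 CPM in the 4 taken in the morning. In non-runners it was 129.8 to 295.1 CPM in the 4 taken at noon and 193.9 to 232.8 CPM in the 4 taken in the morning. The 4 noon runners were above all of the other 12 libraries, and the morning runners overlapped with the non-runners of both times. The median difference by day was 1.28, 1.05, 1.21 and 1.65 on days 1, 3, 6 and 8, with the runner at noon, and 0.20, 0.01, -0.23 and 0.29 on days 2, 4, 5 and 7, with the runner in the morning. The part of the time of day in these levels was not tested. In a fit of the 16 libraries with running, day and time, Chad (log2 change 1.38, adjusted p = 0.011) and Prg4 (0.93, adjusted p = 0.0174) were the 2 genes called in edgeR. A running response that differs by time is here a contrast between days. The day terms take it up, so this fit cannot show whether the response depends on time. By day, Chad differed by 2.35, 1.92, 2.88 and 2.40 with the runner at noon, and by -0.51, 0.93, 0.74 and 0.29 with the runner in the morning. Without the 2 runners with the highest summed markers, those of days 1 and 8, no gene was called and C1qtnf4 had a log2 change of -0.85 (adjusted p = 0.242).

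**Figure D4:**
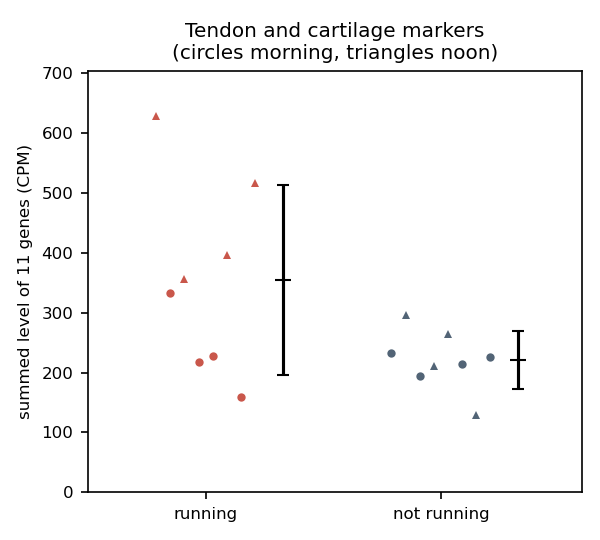
Summed level in CPM of the 11 tested tendon and cartilage markers in 8 runners (red, left) and 8 non-runners (dark, right) under PT alone, with circles for morning, triangles for noon and bars for the mean and SD. The 4 noon runners lie between 356.2 and 627.1 CPM, above the 8 non-runners, which end at 295.1 CPM.

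The wider matrix and immune lists also lay above 0. Of 38 collagen and matrix genes 36 were above 0 (median log2 change 0.23) and 8 were higher at the unadjusted threshold. Lum, the proteoglycan lumican, averaged 51.4 ± 9.94 CPM in runners, against 40.2 ± 8.99 CPM in non-runners (SD), and the runner was higher on all 8 days (log2 change 0.36 ± 0.14, SE). All 16 tested macrophage and neutrophil markers were above 0 (median 0.25), of which Ptprc was higher at the unadjusted threshold, and their summed level was 192.0 to 355.5 CPM in runners, against 155.9 to 404.7 CPM in non-runners. Of 8 lymphocyte markers Cd3e alone had enough counts to be tested, at 3.11 ± 1.14 CPM in runners, against 2.02 ± 0.575 CPM in non-runners.

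All 24 tested interferon-stimulated genes were above 0, with a median of 0.27, and 6 were higher at the unadjusted threshold. Rsad2, the antiviral enzyme viperin, had 3.98 to 11.5 CPM in runners (median 6.16), against 3.22 to 5.51 CPM in non-runners (median 3.98), a log2 change of 0.64 ± 0.23 (SE, adjusted p = 0.376 in edgeR). Ifi44 had 0.892 to 2.85 CPM in runners (median 1.35), against 0.385 to 1.21 CPM in non-runners (median 0.852). The list's median difference was above 0 on 7 of 8 days, with day 3 at -0.30. The macrophage list also had its lowest day on day 3, at -0.62. So did the red blood cell genes, at -0.405. All 5 tested red blood cell genes were above 0 in the fit (median 0.31), with 0 past the unadjusted threshold. The part of either list in the interferon values was not tested.

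Genes of fatty acid synthesis had a median of 0.26, with 7 of 17 higher at the unadjusted threshold. Acly, which makes cytosolic acetyl-CoA from citrate, averaged 31.1 ± 8.02 CPM in runners, against 22.8 ± 2.81 CPM in non-runners (SD, log2 change 0.43 ± 0.15, SE). Fads2, a fatty acid desaturase gene, averaged 5.43 ± 0.563 CPM in runners, against 4.26 ± 0.420 CPM in non-runners (log2 change 0.35 ± 0.12), and 7 of 8 runners were above every non-runner. Adipocyte markers went with the opposite sign: 10 of 12 were below 0 (median -0.16), and their summed level was 1029 to 2140 CPM in runners, against 1314 to 2178 CPM in non-runners.

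NAD genes had a median of 0.03, with 4 of 29 tested higher and 0 lower at the unadjusted threshold, beside 5.25% and 3.97% of all genes. Cd38, an enzyme that breaks down NAD, had 8.67 to 14.8 CPM in runners (median 12.7), against 7.48 to 10.8 CPM in non-runners (median 8.53), and the runner was higher on all 8 days (log2 change 0.48 ± 0.12, SE, adjusted p = 0.140 in edgeR). Sirt3, the mitochondrial sirtuin, averaged 16.8 ± 2.03 CPM in runners, against 14.4 ± 1.95 CPM in non-runners (SD, log2 change 0.23 ± 0.09). Nmrk2, the muscle kinase that phosphorylates NR, averaged 87.8 ± 32.6 CPM in runners, against 90.9 ± 33.6 CPM in non-runners (log2 change 0.03 ± 0.27). The aryl hydrocarbon and NRF2 targets, which stilbenoids are known to act on, had a median of -0.04. At the unadjusted threshold 1 of 26 tested was higher and 2 were lower, beside 5.25% and 3.97% of all genes. So few members do not show a response of the list. Those lower were Gstm1, a glutathione transferase, at 139.1 ± 13.2 CPM in runners, against 159.3 ± 6.38 CPM in non-runners (log2 change -0.20 ± 0.05), and Nqo1, a quinone reductase. Nqo1 had 21.8 to 33.9 CPM in runners (median 27.2), against 30.8 to 35.3 CPM in non-runners (median 33.1), a log2 change of -0.26 ± 0.08 (adjusted p = 0.233). Cyp1a1, an enzyme induced through the aryl hydrocarbon receptor, averaged 1.31 ± 0.587 CPM in runners, against 1.02 ± 0.208 CPM in non-runners.

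The remaining lists lay nearer to 0 or varied by day. Clock genes had a median of -0.05, and Cry1, a repressor of the clock, averaged 14.8 ± 1.56 CPM in runners, against 17.1 ± 1.76 CPM in non-runners (SD, log2 change -0.21 ± 0.09, SE). Glucocorticoid-induced genes and p53 targets had medians of -0.05 and -0.01, each with 0 members past the unadjusted threshold. Cytosolic ribosomal protein genes had a median of -0.05, with 37 of 43 below 0, and mitochondrial ribosomal protein genes one of 0.08, with 30 of 35 above 0. Immediate early genes had a median of 0.21, which ran from -0.60 to 0.82 across days.

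**Figure D5:**
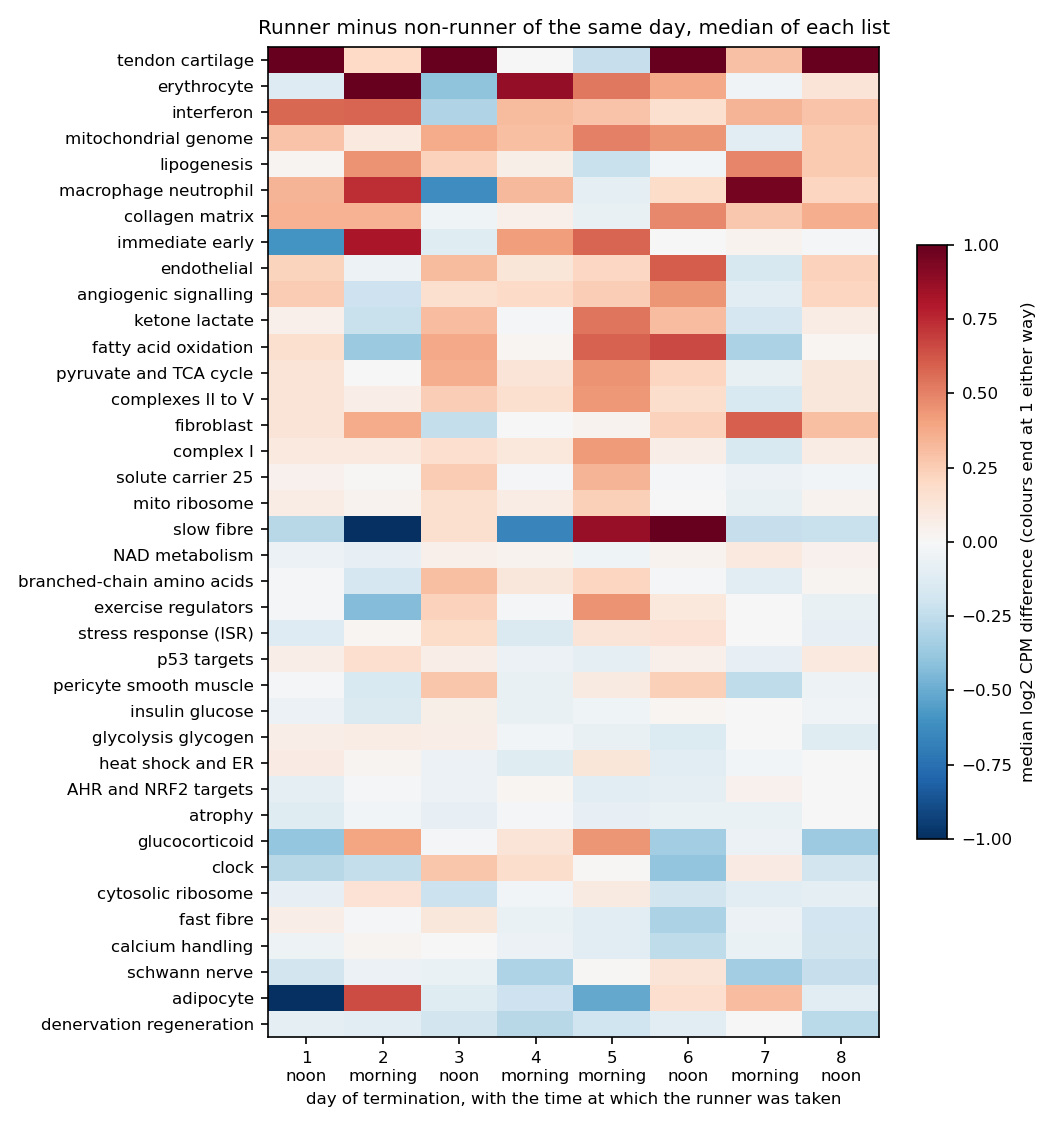
Median log2 CPM difference of each list between the runner and the non-runner of the same day under PT alone, for 8 days; the axis names the time at which the runner was taken, and the non-runner was taken at the other time. Tendon and cartilage markers lie above 1 on the 4 days with the runner at noon, and denervation and regeneration genes lie above 0 on none of the 8 days.

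Beside the 1 called gene under PT alone, running under NR alone had 65 (0.447%), running under NR and PT 247 (1.7%) and running without a supplement 0 (0%; 990 at an unadjusted p below 0.05) in edgeR. Of the 1342 genes at an unadjusted p below 0.05 under PT alone, the sign was the same in 76.9% under NR alone, 85.7% under NR and PT and 80.2% without a supplement. Over all 14549 genes these shares were 60.3, 66.7 and 63.3%. The arms hold different mice but share their days and sessions, whose part in these shares was not tested. The median log2 change of complexes II to V was 0.15 under PT alone, beside 0.12 under NR alone, 0.20 under NR and PT and 0.17 without a supplement. That of the endothelial list was 0.17 under PT alone, beside 0.36 under NR alone, 0.26 under NR and PT and 0.21 without a supplement. That of the tendon and cartilage list was 0.83 under PT alone, beside 0.11 under NR alone, 0.39 under NR and PT and 0.17 without a supplement. Slow-fibre genes had 0.07 under PT alone, beside 0.08, 0.65 and 0.46 in those arms, and the denervation list -0.23, beside -0.10, -0.09 and -0.07. The differences between these medians were not tested.

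No gene passed the test of a difference in running response between PT alone and another arm in edgeR. At an unadjusted p below 0.05 there were 628 genes (4.32%) against NR alone, 518 (3.56%) against NR and PT and 361 (2.48%) against no supplement in edgeR, and DESeq2 called 1, 0 and 0. Against NR alone the smallest p belonged to Efcab9 (log2 difference 1.42 ± 0.32, SE), Haus5 (-1.65 ± 0.39) and Notch1 (-0.60 ± 0.16), with a lowest adjusted p of 0.637 in edgeR. Notch1, a receptor that acts in vessels, averaged 14.4 ± 1.29 CPM in runners, against 14.9 ± 1.27 CPM in non-runners under PT alone (SD). Under NR alone it averaged 19.2 ± 6.91 CPM in 7 runners, against 12.3 ± 2.11 CPM in 8 non-runners. The highest of those runners had 34.4 CPM, and their median was 16.7 CPM. Against NR and PT the genes with the smallest p were Gm10481, Prkcz (0.94 ± 0.23) and B3galt6 (-0.78 ± 0.20), with an adjusted p of 1. Against no supplement they were C130021I20Rik (-1.88 ± 0.41), Krt15 and Fmo4 (1.86 ± 0.45), with a lowest adjusted p of 0.403. Fmo4, a flavin monooxygenase gene, had 0.353 to 1.05 CPM in runners, against 0 to 0.358 CPM in non-runners under PT alone, and all these genes but Notch1 averaged below 3 CPM. The keratin gene Krt15 reached 14.8 CPM in 1 library of non-runners without a supplement and had a median of 0.0952 CPM there, so its fitted difference of 8.62 rests on few libraries.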

How the data were processed

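The deposited values are raw counts per gene, in whole numbers; the authors aligned reads with STAR 2.7.3a and counted them with featureCounts 2.0.0 on mm10, per the submitters' processing notes. The library kit was a stranded one for poly-A RNA, per the labels' protocols. Neither the annotation nor the strand option of featureCounts is given in the sources used here. Of 55487 gene IDs, 55394 (99.8%) matched a symbol.

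The counts of all 62 libraries were fitted with edgeR 4.0.16 (R 4.3.3): TMM scaling, filterByExpr (at least 10 counts in enough libraries and 15 in all), quasi-likelihood F test with terms for 8 groups, 8 days and time of termination (46 residual degrees of freedom). Calls had a Benjamini-Hochberg adjusted p below 0.05 over 14549 genes, two-sided. CPM used TMM-scaled library sizes, and day differences used log2 CPM with a prior count of 2. Alternatives used DESeq2 1.42.0 and limma 3.58.1.

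The rule for named genes took, for each direction with fewer than 5 calls, the 5 genes with the smallest p and a mean of at least 1 CPM, then up to 4 members a list by p, 3 genes for each difference between arms, and a fixed set of 14 genes. Members and lists were chosen with earlier results of these data known. The replicate numbers in the titles do not mark days and do not pair the mice. Differences by day line up mice by the day in the labels, and mice of the same day are not pairs either.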

Additional observations from a re-analysis of the deposited data

Results flagged for a closer look

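In 82 sets of 8 libraries, 1 library stood apart from the others in 8 sets by the gap to its neighbour over the range, past Dixon's critical value; chance gives about 1 in 20. Among runners, Pdk4 had a high library at 1609 CPM with the next at 585.0 CPM, Slc2a4 one at 516.3 CPM with the next at 480.8 CPM, and Myh7 one at 3.48 CPM with the next at 1.21 CPM. The summed fibroblast markers had a low runner at 1762 CPM with the next at 2328 CPM. On the first principal component of all genes a runner lay at -38.5, with the next at -4.9. Among non-runners, Wnt4 had a low library at 36.4 CPM with the next at 45.0 CPM, Myh7 a high one at 5.90 CPM with the next at 2.86 CPM, and the summed Schwann cell markers a high one at 125.8 CPM with the next at 109.1 CPM.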

How the results depend on the processing

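C1qtnf4 kept its sign under all alternatives run, with log2 changes of -1.10 to -0.85. The number of called genes was 1 in the fit reported and also 1 with RLE scaling, without the low-count filter, without the time term and with limma-voom. It was 16 with DESeq2, 2 in the 16 libraries with day and time, 0 in the 16 libraries with running alone (1531 at an unadjusted p below 0.05 in edgeR), 0 in cohort 1 (814 unadjusted) and 0 in cohort 2 (1069 unadjusted). With the replicate block by title number, fitted without day and time, it was 14, 6 higher and 8 lower, with C1qtnf4 among them. The numbers do not pair the mice (r of -0.03 to 0.29 over 8 pairs, 2 of 8 runners correlating best with their own number). The runner and the non-runner of the same day did not deviate together either (r of -0.15 to 0.05, 1 of 8 correlating best with its own day). Leaving out 1 library at a time gave 0 to 16 calls. The extremes were 0 without the day 1 or the day 6 runner and 16 without the day 7 runner, and without the day 2 non-runner there were 2, C1qtnf4 and Zfp346. Without both runners highest in tendon and cartilage markers, an alternative chosen after seeing the data, it was 0 (889 unadjusted). DESeq2 called 1 gene in the difference from the response under NR alone, where edgeR called 0 (628 unadjusted): the predicted gene Gm23935, named after its values were seen (log2 difference -6.48 ± 1.39, SE, adjusted p = 0.0466 in DESeq2). The causes were not tested. Among values of named genes 4981 kept direction and side of the threshold, 35 passed it only under an alternative, 7 no longer passed it, all for C1qtnf4, and none was reversed, counting a sign change only for values called or beyond 1 SE in both fits. C1qtnf4 rests on 24 to 179 counts per library, which limits its precision.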
